A study of Rattus norvegicus with 16 samples.

Results

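Apolipoprotein A-I (ApoA-I) was added to primary rat microglia that had received no lipopolysaccharide (LPS), and their transcripts were compared with those of untreated cells. The comparison took 8 of the 16 RNA-seq libraries of the study, 4 labelled ApoA-I and 4 labelled Control, chosen by their sample titles. All cells were wild-type primary microglia at day 12 in vitro. Control cultures received neither agent, and ApoA-I cultures received ApoA-I protein at 100 ug/ml in the medium. The remaining 8 libraries came from cells given LPS at 100 ng/ml for 20 hours, 4 of them without and 4 with the same concentration of ApoA-I. They entered the fit, and they served to say how each gene responded to LPS. How long cells had ApoA-I without LPS is not stated. Nor is it stated whether replicates were separate animals or cultures, so the p-values speak of the spread among these libraries, part or all of which may be technical. In bulk RNA, fewer cells of a kind and less RNA per cell cannot be told apart.

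ApoA-I is the main protein of high-density lipoprotein. It accepts cholesterol and phospholipid from cells, chiefly through the transporter ABCA1, and macrophages that lose membrane cholesterol in this way can change their sterol-responsive and inflammatory gene programmes. Microglia are the resident macrophages of the brain, and LPS, a bacterial cell wall glycolipid, activates them through Toll-like receptor 4.

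The 8 libraries held between 12304916 and 17262383 estimated counts each. Over all 16 libraries, 11902 of 30560 listed genes had enough counts to be tested. Genes with few or no counts in the 8 libraries could thus be tested because of the LPS libraries. The tables carry Ensembl gene identifiers, and 0 of the 47357 genes that RefSeq names here come with one. Whether a changed gene handles lipid was therefore not analysed here, and the labelled cell type was not checked against its markers. Whether a changed gene responds to LPS could be read from the LPS libraries. On the first principal component of the 8 libraries, with 32.3% of the variance, 3 Control libraries lay between -15.9 and -7.53 and 3 ApoA-I libraries between 4.82 and 18.0. Control 4 lay at 0.156 and ApoA-I 4 at 1.79, so these 2 libraries were close to each other on this axis. A set of 8 abundant genes whose levels varied together took 7.87% ± 3.21 of the counts in Control and 3.91% ± 3.71 in ApoA-I libraries (SD, n = 4 each; two-sided exact permutation p = 0.143). ApoA-I 2 held 9.43% and the other ApoA-I libraries at most 2.66%. Their part in the changes below was tested only by adding their share to the model.

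For most genes a change with ApoA-I without LPS did not pass the test. By edgeR's quasi-likelihood test on all 16 libraries it changed 508 genes, 4.27% of those tested, at a Benjamini-Hochberg adjusted p under 0.05. A gene was said to hold when it passed this threshold in the same direction in the full fit and in each of 8 refits that left out 1 Control or ApoA-I library. Of the 508 genes, 155 held, of which 87 rose and 68 fell with ApoA-I. Of the others, 29 lost their call in 1 refit and 324 in more than 1. Loss was most common without ApoA-I 1, where 330 of the 508 calls ended, and without Control 3, where 310 ended. It was least common without ApoA-I 4 and Control 4, where 56 and 59 ended. Leaving out ApoA-I 1 gave 186 calls and leaving out Control 3 gave 202. Leaving out Control 1, 2 or 4 gave 285, 325 or 781 calls. The 5 genes nearest to the limit on the inside had a highest adjusted p over the refits of 0.0469 to 0.0481, and the 5 nearest on the outside 0.0509 to 0.0517.

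The number that held differed between analyses. In the main fit each gene's spread was estimated over all 16 libraries, those with LPS included. Fitting only the 8 libraries without LPS takes the spread from these alone and lowers the residual degrees of freedom from 12 to 6. There, 90 genes were called and 10 held, all 10 of them among the 155. With the share of the 8 co-varying genes in the model 17 genes held, and with DESeq2 269 held. In the full fits, 81 of the 155 genes were still called with 8 libraries, 138 with the share in the model and 155 with DESeq2. None of the 155 changed direction under the 8 alternatives that kept all 16 libraries. As the genes were chosen for keeping their direction in these same libraries, this describes them only.

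**Figure D1:**
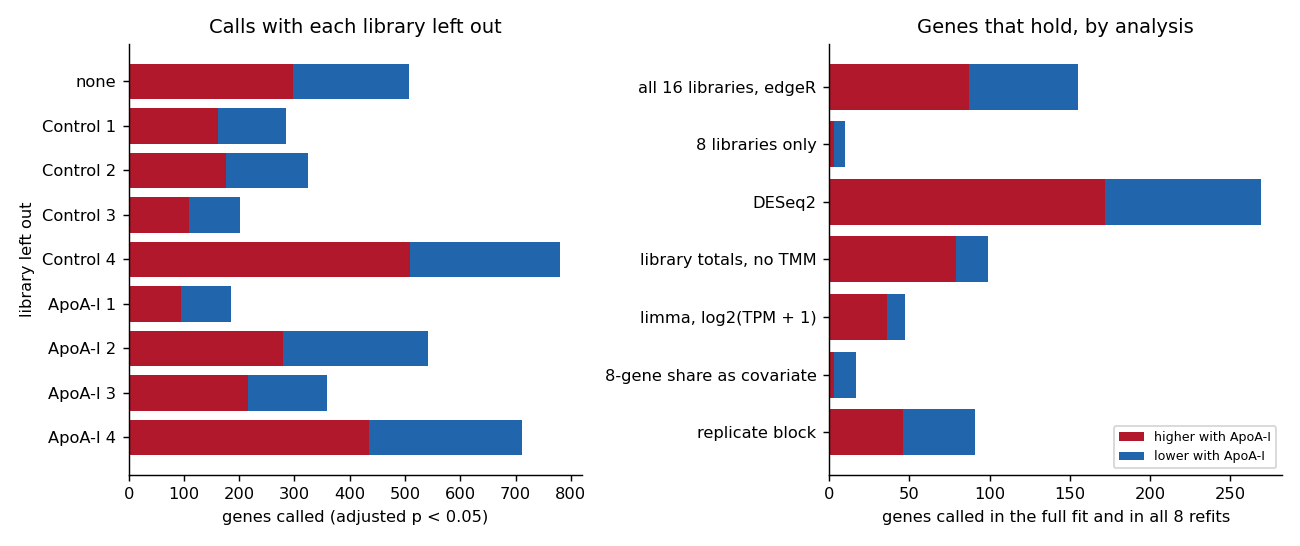
Left, number of genes called in ApoA-I against Control (horizontal axis, adjusted p under 0.05) in the full fit and with each of the 8 libraries left out, and right, number of genes called in the full fit and in all 8 refits under 7 analyses. Red is higher and blue lower with ApoA-I. Calls range from 186 without ApoA-I 1 to 781 without Control 4, and genes that hold from 10 with 8 libraries only to 269 with DESeq2.

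The 10 genes that held in both fits, a set put together after the values had been seen, are given first. ApoA-I lowered 7 of them and raised 3, and in all 10 the 4 ApoA-I libraries lay outside the range of the 4 Control libraries. Over all tested genes 8.26% showed no overlap between the groups, and the 155 genes included 139 such genes. As non-overlap follows from how the genes were chosen, these counts describe them only. The changes were modest, with folds between 1.34 and 2.16.

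The gene with the largest fall among the 10 had 211, 151, 177 and 205 CPM (read counts per library size after TMM scaling) in Control 1 to 4 and 90.2, 100.4, 70.6 and 82.7 CPM in ApoA-I 1 to 4. Its mean thus went from 186.0 ± 27.8 to 86.0 ± 12.6 CPM (SD, n = 4 each), a log2 fold change of -1.11 (SE 0.10, edgeR adjusted p = 1.67e-06). In LPS-treated cells ApoA-I lowered it from 197 ± 15.3 to 91.2 ± 7.60 CPM (SD, n = 4 each), again by 1.11 log2 units, and the interaction did not pass the test (log2 4.97e-04, SE 0.14). Its LPS response did not pass the test (log2 0.08, SE 0.07, edgeR adjusted p = 0.281). The next gene varied little within the groups, with 163, 158, 157 and 153 CPM in the Control libraries and 83.1, 75.4, 74.5 and 78.1 CPM in the ApoA-I libraries. Its log2 fold change was -1.02 (SE 0.06, edgeR adjusted p = 2.10e-09). LPS lowered it to 85.6 ± 4.88 CPM, close to the level with ApoA-I alone, and both agents together gave 52.6 ± 5.44 CPM (SD, n = 4 each).

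LPS raised 2 of the 7 lowered genes by over 1 log2 unit, where it raised 8.87% of all tested genes by as much. The first had 114.5, 113.0, 99.7 and 132 CPM in Control 1 to 4 and 71.9, 63.9, 61.4 and 68.9 CPM in ApoA-I 1 to 4. It reached 504 ± 22.9 CPM with LPS and 125 ± 11.8 CPM with LPS and ApoA-I (SD, n = 4 each). The second had 37.9 to 40.9 CPM in Control and 23.7 to 29.3 CPM in ApoA-I libraries. LPS brought it to 177 ± 10.6 CPM, and with ApoA-I it stayed at 26.0 ± 1.78 CPM (SD, n = 4 each), near the level in cells given ApoA-I alone. In both genes the groups without LPS did not overlap, and ApoA-I lowered the level with and without LPS, by more with LPS (log2 interactions of -1.22, SE 0.11, and -2.25, SE 0.10; edgeR adjusted p = 5.91e-09 and 2.00e-13).

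Another of the 7 lowered genes went the opposite way in LPS-treated cells. It had 16.6 to 18.5 CPM in Control and at most 11.9 CPM in ApoA-I libraries. With LPS it was at 2.80 ± 0.528 CPM, and with LPS and ApoA-I at 9.08 ± 1.34 CPM (SD, n = 4 each), where ApoA-I raised it by 1.68 log2 units. The last 2 genes of the 7 fell by 0.44 and 0.42 log2 units without LPS and by 0.44 and 0.60 with LPS.

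Of the 3 genes that rose in both fits, LPS lowered 2, where it lowered 40.2% of all tested genes. The first had 90.0, 92.7, 96.0 and 99.6 CPM in Control 1 to 4 and 128, 119, 139 and 141 CPM in ApoA-I 1 to 4. With LPS it was at 2.28 ± 0.815 CPM, and ApoA-I raised it to 18.2 ± 1.35 CPM in LPS-treated cells (SD, n = 4 each). The second had 24.5 to 27.5 CPM in Control and 34.2 to 39.2 CPM in ApoA-I libraries, and went from 10.6 ± 0.892 CPM with LPS to 32.2 ± 1.94 CPM with both (SD, n = 4 each). The remaining gene had 36.0 to 41.7 CPM in Control and 52.9 to 62.6 CPM in ApoA-I libraries. It was at 64.8 ± 1.65 CPM with LPS, above Control, and ApoA-I lowered it to 37.5 ± 1.57 CPM in those cells (SD, n = 4 each), so that its LPS response averaged over cells with and without ApoA-I was 0.04 log2 units. Of the values of this gene, 93.8% were not whole numbers, which marks reads that the authors' counting shared between genes, so its level is uncertain.

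**Figure D2:**
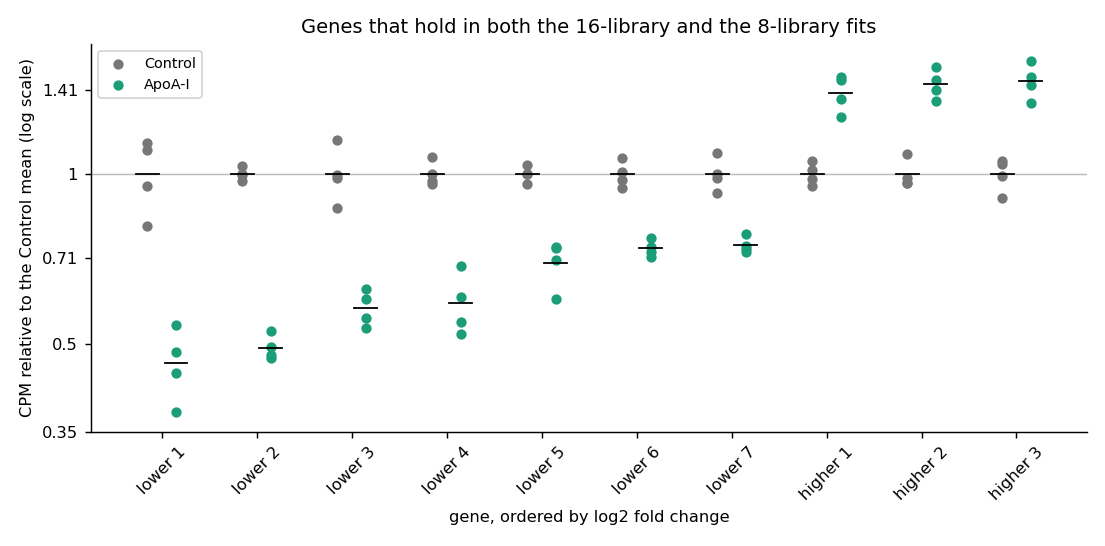
CPM of each Control (grey) and ApoA-I (green) library divided by the Control mean (vertical axis, log scale) for the 10 genes that held in both fits, ordered by log2 fold change. Points are libraries and bars group means. In each gene the 4 ApoA-I points lie on one side of the 4 Control points.

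The 2 largest increases and the 2 largest decreases among the 155 genes belonged to transcripts with under 10 CPM in each library without LPS. These 4 are given with their identifiers. LPS raised all 4, where it raised 38.9% of all tested genes. ENSRNOG00000029543 had too few counts without LPS and passed the count filter only through its LPS libraries. Its rise with LPS follows from that choice and adds nothing to this count. ENSRNOG00000018804 fell with ApoA-I. It had 3.16, 3.58, 3.20 and 2.95 CPM in Control 1 to 4 and 1.84, 0.921, 0.977 and 1.17 CPM in ApoA-I 1 to 4, so the groups did not overlap. The log2 fold change was -1.38 (SE 0.19, edgeR adjusted p = 3.38e-04), and over the refits it lay between -1.64 and -1.27. LPS raised it to 44.1 ± 3.36 CPM, and ApoA-I in LPS-treated cells lowered it again, to 21.4 ± 2.44 CPM (SD, n = 4 each), a log2 change of -1.05. ENSRNOG00000013748 had 6.39, 6.77, 4.68 and 9.79 CPM in Control 1 to 4 and 3.62, 3.75, 1.95 and 2.62 CPM in ApoA-I 1 to 4. The highest ApoA-I library was below the lowest Control library, with a log2 fold change of -1.20 (SE 0.21, edgeR adjusted p = 0.00202). In LPS-treated cells ApoA-I lowered it from 25.3 ± 2.87 CPM (SD, n = 4) to a mean of 15.1 ± 1.01 (SD, n = 4). For both genes the interaction did not pass the test (log2 0.33, SE 0.22, and 0.46, SE 0.26; edgeR adjusted p = 0.241 and 0.165).

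ENSRNOG00000029543 showed the largest increase, from almost no signal. Its 4 Control libraries held 3, 1, 3 and 1 counts and its ApoA-I libraries 33, 6, 7 and 10, which gave 0.19, 0.066, 0.165 and 0.063 CPM against 2.17, 0.425, 0.456 and 0.690 CPM. All ApoA-I libraries lay above all Control libraries, but ApoA-I 1 stood far above the others. The log2 fold change was 2.86 (SE 0.58, edgeR adjusted p = 0.00721) and 2.01 without ApoA-I 1. LPS raised it to 22.2 ± 1.29 CPM and both agents together to 38.3 ± 3.02 CPM (SD, n = 4 each). ENSRNOG00000022298 had 1.39, 1.53, 1.21 and 3.07 CPM in Control 1 to 4 and 6.32, 6.23, 5.34 and 2.62 CPM in ApoA-I 1 to 4. Here Control 4 exceeded ApoA-I 4, so the groups overlapped. The log2 fold change was 1.51 (SE 0.28, edgeR adjusted p = 0.00326). With LPS it was at 17.4 ± 2.71 CPM, and ApoA-I then lowered it to 9.74 ± 1.67 CPM (SD, n = 4 each), the opposite of its change without LPS (log2 interaction -2.35, SE 0.35, edgeR adjusted p = 1.23e-05). With only the 8 libraries without LPS, neither increase passed the test (edgeR adjusted p = 0.0740 and 0.0529), while both decreases did.

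**Figure D3:**
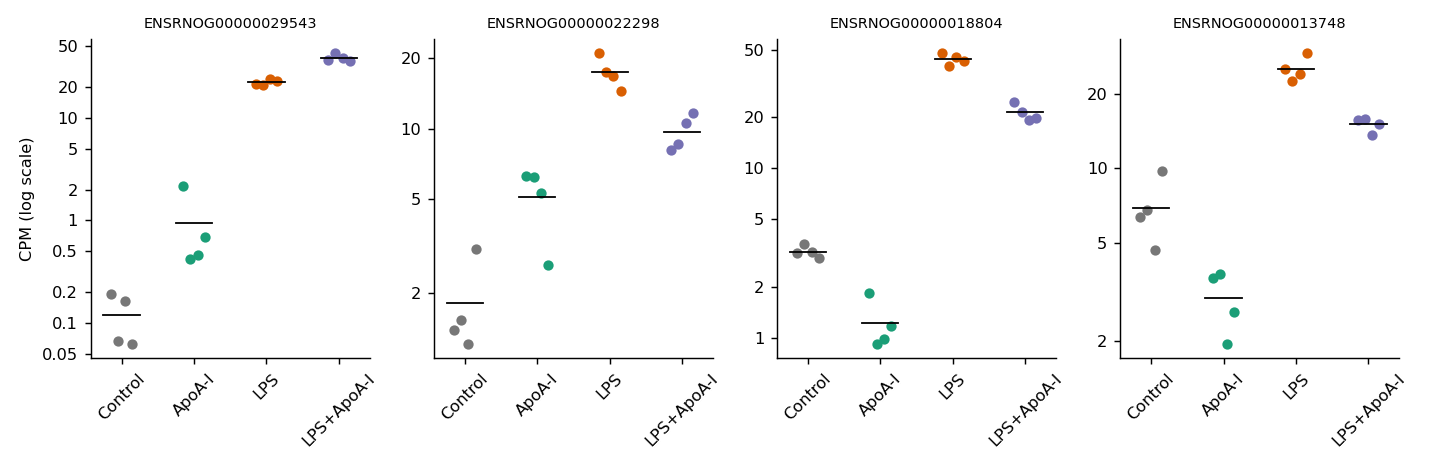
CPM per library (vertical axis, log scale, with its own range in each panel) in the 4 groups. The genes are the 2 with the largest increase and the 2 with the largest decrease among those that hold. Points are libraries and bars group means. The 2 genes on the left rise and the 2 on the right fall with ApoA-I without LPS, and LPS raises all 4.

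Across the 155 genes most changes were small. The 87 raised genes had a median log2 change of 0.41, from 0.19 to 2.86, and the 68 lowered genes a median of -0.36, from -1.38 to -0.21, against a median of 0.00 over all tested genes. More than 1 log2 unit separated the groups in 11 raised and 4 lowered genes, and 105 of the 155 changed by 0.5 log2 units or less. The most abundant lowered gene was among the most highly expressed in these cells, with 15100, 14570, 15030 and 14110 TPM (a level that takes transcript length into account) in Control 1 to 4 and 11400, 12270, 11440 and 13000 TPM in ApoA-I 1 to 4. Its 2 groups did not overlap, and the log2 change was -0.42 (SE 0.07, edgeR adjusted p = 0.00174). LPS lowered the same gene, and ApoA-I raised it in LPS-treated cells by 1.26 log2 units.

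The most abundant raised gene had 259, 272, 213 and 318 TPM in Control 1 to 4 and 1096, 582, 447 and 335 TPM in ApoA-I 1 to 4. ApoA-I 4 was close to Control 4, and ApoA-I 1 stood far above every other library. It is a strongly LPS-raised gene, at 6352 to 6641 TPM in LPS libraries. Over the 87 raised genes, ApoA-I 1 was the highest ApoA-I library in 62 and ApoA-I 4 the lowest in 61, while Control 4 was the highest Control library in 49 and Control 3 the lowest in 45. Over the 68 lowered genes no library took more than 30 of the highest or 27 of the lowest places within its group. The raised genes thus shared 1 ordering of the libraries more than the lowered genes did.

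Many of the genes that held and rose with ApoA-I are LPS-inducible. A gene's LPS response was taken as the mean of the 2 LPS groups minus the mean of the 2 groups without LPS, a contrast chosen after the data had been seen because it gives Control and ApoA-I libraries equal weight. It still uses the same 8 libraries as the comparison of ApoA-I with Control. Of the 87 raised genes, LPS raised 60 and lowered 20, where 38.9% of all tested genes were raised and 40.2% lowered. By more than 1 log2 unit LPS raised 38 of the 87 (43.7%), against 8.87% of all tested genes, and lowered 6, against 17.1%. Of all 297 genes called higher in the full fit, whether or not they held, LPS raised 89 (30.0%) by as much. By more than 4 log2 units it raised 6 of the 87 (6.90%), against 1.34% of all tested genes. Their median LPS response was 0.80 log2 units, against -0.01 over all tested genes. ENSRNOG00000029543 is among the 60, the 38 and the 6, although it was tested only through its LPS libraries.

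Among the lowered genes the shares were nearer to those of all tested genes. Of the 68, LPS raised 28 and lowered 32, and raised 12 (17.6%, against 8.87%) and lowered 16 (23.5%, against 17.1%) by more than 1 log2 unit, with a median response of -0.06 log2 units. The genes that held had a median level of 58.9 TPM over the 8 libraries, against 16.2 TPM over all tested genes, and what part the level had in these shares was not tested.

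For the 38 raised genes that LPS raises by more than 1 log2 unit, the median level was 54.0 CPM in Control, 79.2 CPM in ApoA-I, 343 CPM in LPS and 222 CPM in LPS with ApoA-I libraries. Relative to the Control mean, the median over these genes of log2(CPM + 1) was 0.72, 0.49, 0.40 and 0.31 in ApoA-I 1 to 4. It was -0.05, 0.05, -0.12 and 0.14 in Control 1 to 4. In LPS libraries it was 2.25 to 2.27, and in LPS with ApoA-I libraries 2.05 to 2.13. These medians lay closer together with LPS than without, yet all 4 groups share 1 estimate of each gene's spread. What this did to the p-values of ApoA-I against Control was not tested. The median change of the 38 genes with ApoA-I was 0.50 log2 units, and 17 of them were called under all 9 alternatives, the fit of 8 libraries included. In that fit, however, only 3 raised genes held in every refit, and 0 of these 3 were of this kind. With library totals in place of TMM scaling, LPS raised 28 of the 87 by over 1 log2 unit (32.2%, against 6.08% of all tested genes), where the median LPS response of all genes was -0.35.

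**Figure D4:**
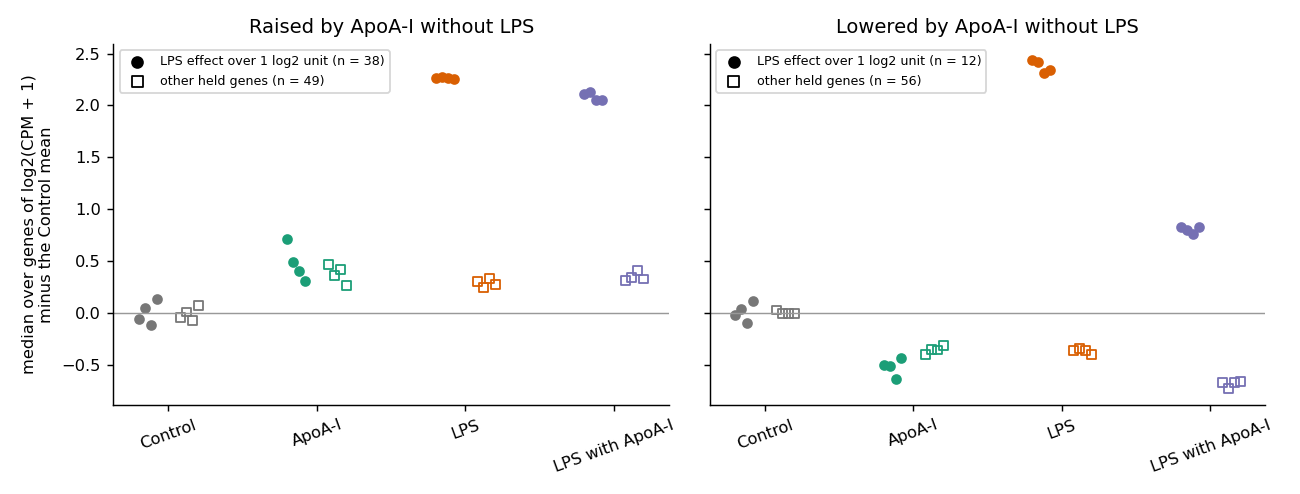
Median over genes of log2(CPM + 1) minus the Control mean (vertical axis) in each of the 16 libraries, for genes that hold and were raised (left) or lowered (right) by ApoA-I without LPS. Filled circles are genes that LPS raises by more than 1 log2 unit, open squares the others. For the 38 raised genes of the first kind the ApoA-I libraries lie at 0.31 to 0.72 and the LPS libraries at 2.25 to 2.27.

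The libraries with LPS and with LPS and ApoA-I were not contrasted in calling the 155 genes. They did enter the count filter, the TMM scaling and the shared estimate of the spread. They gave a second measure of the effect of ApoA-I, which is not wholly separate from the first. In LPS-treated cells ApoA-I raised 26.4% and lowered 24.9% of all tested genes. It lowered 45 of the 68 genes that it also lowered without LPS (66.2%), raised 10 and left 13 without a call. The 87 genes raised without LPS divided: 36 rose again (41.4%), 32 fell and 19 had no call. With library totals in place of TMM scaling, 32 of the 68 fell again and 41 of the 87 rose again. With limma on log2(TPM + 1), 30 of the 68 fell again and 40 of the 87 rose again. The difference between the lowered and the raised genes thus depended on the scaling. These shares depend on how many genes of each LPS response a set holds, and are therefore also given by LPS response.

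By LPS response, the genes compared as follows with all tested genes of the same kind. All 12 lowered genes that LPS raises by more than 1 log2 unit fell again, with a median change of -0.90 log2 units, where ApoA-I lowered 61.6% of all tested genes of that kind. Of the 38 raised genes of that kind, 21 fell (55.3%), somewhat under that share, and 10 rose (26.3%), where 10.4% of all tested genes of that kind rose. Their median change was -0.40 log2 units, against -0.50 over all tested genes of that kind. Of the 6 raised genes that LPS lowers by more than 1 log2 unit, 4 rose and 0 fell, where 44.8% of such genes rose and 6.68% fell. Of the 14 raised genes that LPS lowers by less, 10 rose (71.4%) and 2 fell (14.3%), against 34.9% and 17.1%. Among the 16 lowered genes that LPS lowers by more than 1 log2 unit, 5 rose (31.2%), 4 fell (25%) and 7 had no call, against the same 44.8% and 6.68%. The medians of the 12 lowered, LPS-raised genes were 43.8 CPM in Control, 32.6 CPM in ApoA-I, 257 CPM in LPS and 141 CPM in LPS with ApoA-I libraries.

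**Figure D5:**
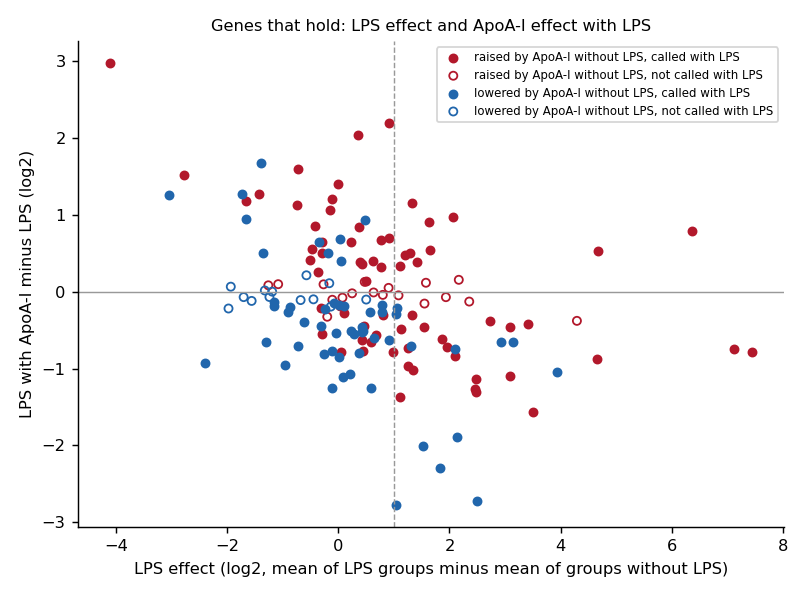
Effect of ApoA-I in LPS-treated cells (vertical axis, log2) against the LPS response (horizontal axis, log2) for the 155 genes that hold, red where ApoA-I without LPS raised and blue where it lowered the gene. Filled points passed the test in LPS with ApoA-I against LPS, and the dashed line marks 1 log2 unit. All 12 blue points to the right of the line lie below 0, while red points there lie on both sides.

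Whether LPS altered the effect of ApoA-I was tested as an interaction. The test was passed by 103 of the 155 genes, 65 of the raised and 38 of the lowered, where it passed in 41.0% of all tested genes. Because the same ApoA-I and Control libraries chose the genes and enter the interaction, these counts are a description. Among the 38 raised genes that LPS raises by more than 1 log2 unit, the interaction passed in 29 (76.3%). It passed in 55.3% of all tested genes of that kind.

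Transcript length and shared reads were also compared. The median effective length, taken from the ratio of counts to TPM and set to 1 for the median tested gene, was 1.34 for the raised and 0.989 for the lowered genes that held. Over 10% of the values were not whole in 6 of the 155 genes (3.87%), against 8.48% of all tested genes. The 155 genes together held 3.40% of the counts of a Control library, 0.968% in raised and 2.43% in lowered genes.

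Under all 9 alternatives to the main analysis, 64 of the 155 genes were called in the same direction, 36 raised and 28 lowered. Of the 36, LPS raised 23 and lowered 10, and ApoA-I with LPS raised 16 and lowered 12. Of the 28, LPS raised 14 and lowered 11, and ApoA-I with LPS lowered 18 and raised 6. Over all tested genes LPS raised 38.9% and lowered 40.2%, and ApoA-I with LPS raised 26.4% and lowered 24.9%. Where libraries were scaled by totals or measured in TPM, the balance of all calls moved from 58.5% higher to 83.1% and 81.6% higher, and of the 68 lowered genes 45 and 37 were still called.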

How the data were processed

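Per the labels' protocols, total RNA of 16 samples was isolated with an RNeasy Plus Micro kit and sequencing libraries were prepared by Novogene. The authors deposited estimated counts and TPM per gene. Per the submitters' processing notes, cutadapt 1.8.1, STAR 2.7.10b and RSEM 1.3.1 were used, with the mouse build mm10 named, although all identifiers have the rat prefix (the sources used here do not give the annotation). An annotation unlike the reads' species could affect the counts of any gene, and how many genes it would affect was not tested.

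Counts (3.25% not whole, tolerance 0.005) were rounded and filtered over all 16 libraries with filterByExpr (minimum count 10). All 16 libraries were fitted by group with edgeR 4.0.16 in R 4.3.3 (TMM, quasi-likelihood F test, 12 residual degrees of freedom), Benjamini-Hochberg over 11902 genes, threshold 0.05. SE is the absolute log2 fold change over the square root of F. Alternatives were DESeq2 1.42.0, limma 3.58.1 on log2(TPM + 1), voom weights, other scalings and filters, a replicate block, a covariate, 8 libraries, and leaving out each library. Refits kept the same genes. The code was tested on simulated data. The principal components used log2 CPM with 2 added.

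Members, lists and alternatives were chosen with earlier results of these data known. The 22 planned gene lists and markers could not be matched to identifiers and were not used. The LPS contrast and the set of 10 genes were added after the data were seen. Named identifiers are the 2 largest increases and 2 largest decreases among genes that hold, the rule set for the case without symbols. The 8 co-varying genes had at least 1000 mean CPM and within-group correlation above 0.95 with the most abundant gene. No Control or ApoA-I library looked like another of its own group: the 12 such pairs had chi-square values of 8.23 to 70.7 per degree of freedom. Other pairs were not compared.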

Additional observations from a re-analysis of the deposited data

Results flagged for a closer look

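In 24 groups of 4 values, where chance alone would mark about 1 in 20, 4 values stood apart from the other 3. ENSRNOG00000029543 had 2.17 CPM in ApoA-I 1, against at most 0.690 CPM in the other ApoA-I libraries. ENSRNOG00000022298 had 3.07 CPM in Control 4, against at most 1.53 CPM in the other Control libraries. The 8 co-varying abundant genes held 9.43% of the counts of ApoA-I 2. LPS 3 had a total of 16386274 counts.

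The interaction of ApoA-I and LPS passed the test in 2 of the 4 genes given by identifier: ENSRNOG00000029543 with -2.07 log2 units (SE 0.62, edgeR adjusted p = 0.0105) and ENSRNOG00000022298 with -2.35 log2 units (SE 0.35, edgeR adjusted p = 1.23e-05). It passed in 41.0% of all tested genes, and the 4 genes were chosen for their change without LPS in libraries that also enter the interaction, so these values are a description.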

How the results depend on the processing

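Calls in ApoA-I against Control numbered 806 with DESeq2, 310 with limma on log2(TPM + 1), 224 with the share of the 8 co-varying genes as covariate and 90 with 8 libraries, against 508, and 186 to 781 with 1 library left out. Genes that held numbered 269 with DESeq2, 99 with library totals, 91 with the replicate block, 47 on log2(TPM + 1), 17 with the covariate and 10 with 8 libraries, against 155. The fit of 8 libraries has 6 residual degrees of freedom in place of 12 and takes no part of its spread from LPS libraries. What part each of these or other causes had was not tested. The share of those raised that LPS raises by more than 1 log2 unit was 0% of 3 with 8 libraries and 66.7% of 3 with the covariate, and 34.3% to 52.2% otherwise. The share of calls that were higher was 42.2% with 8 libraries. Counts for LPS with ApoA-I against LPS (5673 to 6461) and for the interaction (4143 to 4992) stayed within 1.5 times. No pairing by replicate number was seen: correlations of same-numbered Control and ApoA-I libraries were -0.25 to 0.02, and none matched its own number best. Whether same-numbered libraries shared a culture or batch is not stated, and low correlations cannot settle it. The replicate block gave 469 calls. ENSRNOG00000018804 and ENSRNOG00000013748 kept their calls under all 17 alternatives, ENSRNOG00000022298 under 16 and ENSRNOG00000029543 under 15, with no change of sign. Depth limits genes of few counts, such as the last.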
